A study of Mus musculus with 2 samples.

Results

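Transcripts of 10 iron handling genes were measured in bone marrow-derived dendritic cells of mice labelled EGR1-deficient and of mice labelled wild type (WT). The 10 genes were Hmox1, Slc40a1, Fth1, Ftl1, Tfrc, Slc11a1, Slc11a2, Hfe, Ireb2 and Ncoa4. They were chosen by name, and every non-control probe whose transcript accession belongs to one of them was used. This gave 17 probes for the 10 genes, out of 23786 genes that had a named probe on the array. EGR1 is a DNA-binding protein that many stimuli induce rapidly, and the wider study asks how lactate dampens inflammation in dendritic cells.

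The EGR1-deficient group was 1 one-colour Agilent expression array of Cy3-labelled cRNA, and the WT group was 1 such array. Both RNA samples are labelled as bone marrow-derived dendritic cells of male C57BL/6J mice, which differ in genotype as Egr1-deficient or WT. Femoral marrow cells of both groups were cultured with GM-CSF at 10 ng/ml and collected on day 6. How the Egr1 allele was made, the age of the mice and the number of mice per RNA sample are not stated in the labels. With 1 array per group there is no replicate check, so no p-value was computed and each difference compares these arrays, not the genotypes.

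Dendritic cells and macrophages take up iron with transferrin and from engulfed red cells, store it in ferritin and return it to the blood through ferroportin. Heme oxygenase opens the heme ring and frees its iron. When iron is scarce, the iron regulatory proteins bind hairpins in messenger RNAs, which blocks translation of the ferritins and ferroportin and stabilises the transferrin receptor transcript. The arrays measured RNA only, so translation is not part of these data.

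None of the 10 iron handling genes was 1.5-fold or more apart between the arrays, where 7.69% of all genes above background on both arrays were. The differences, as log2 of scaled signal for EGR1-deficient minus WT, ran from -0.40 for Slc11a1 to 0.054 for Hfe. The macrophage metal transporter gene Slc11a1 (1.32-fold lower on the EGR1-deficient array), the ferritin receptor gene Ncoa4 (1.30-fold lower) and the transferrin receptor gene Tfrc (1.22-fold lower) lay furthest from 0. The probes that stand for Fth1, Ftl1, Hmox1, Slc40a1, Hfe, Ireb2 and Slc11a2 differed by at most 1.10-fold, and the other Ftl1 probe was 1.17-fold lower. A second probe of Slc11a2 stood apart from the rest, at 2.14-fold higher on the EGR1-deficient array, whereas the 3 other probes of that gene were slightly below 0.

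Before the values, the labels and the cells were checked. Of 59305 non-control spots, 59.8% were well above background on the EGR1-deficient array and 55.2% on the WT array. Egr1 itself read 1212 on the EGR1-deficient array, against 380 on the WT array, which is a difference of 1.61, so its transcript does not bear out the labels. It has 1 probe, whose place relative to the targeted part of the gene is not given, and a probe outside a deleted part checks nothing. Were the labels of the arrays exchanged, each difference below would keep its size and change its sign, and whether they were was not tested. Xist, the RNA of the inactive X chromosome in female cells, read 4559 on the EGR1-deficient array and 3425 on the WT array, while the probes used for the Y chromosome genes Ddx3y, Kdm5d and Uty did not rise clearly above background. Eif2s3y, also on the Y chromosome, gave a dim signal of 27.1 on the EGR1-deficient array and 25.6 on the WT array. Apart from Eif2s3y, these values go against the label male. All 12 dendritic cell markers on the list, such as Itgax, Flt3 and H2-Ab1, were well above background on both arrays. So were 11 of 11 neutrophil, 8 of 8 monocyte and 13 of 14 red pulp and tissue macrophage markers. Some of these genes are shared between cell types. In bulk RNA, fewer cells of a type and less RNA per cell cannot be told apart. Below, "EGR1-deficient" means the array so labelled.

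Signals and summed signals are given unscaled, in the scanner program's arbitrary units, and signals of different probes are not comparable. In a sum, the brightest probes weigh most. Differences were taken after division by each array's 75th percentile (192 for EGR1-deficient, 183 for WT). A signal slightly higher on the EGR1-deficient array can therefore have a difference below 0. The scanner program's own error estimate per spot, carried to a difference of log2 signals, was 0.20 to 0.31 for the 17 probes. Across the array, the median SD between probes of the same gene was 0.18 over 4594 genes, and repeated spots of a probe had a median SD of 0.070. These errors are technical and leave out the spread between cultures and mice. The median difference over the 13725 genes well above background on both arrays was -0.052, and their interquartile range was -0.23 to 0.15.

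All 17 probes were well above background on both arrays. The difference was smaller than the scanner error in 9 probes and larger in 8.

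**Figure D1:**
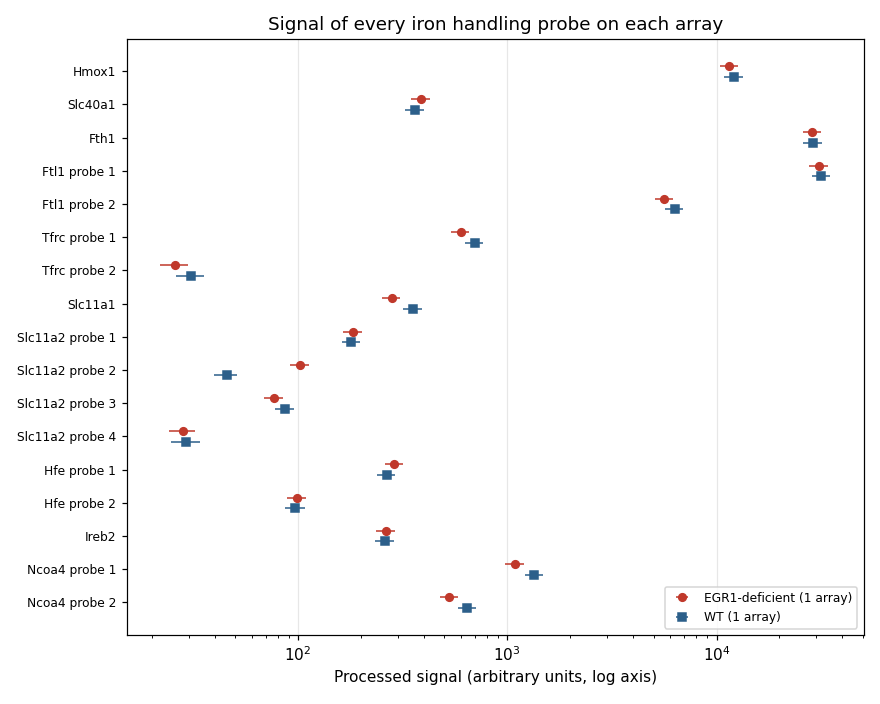
Processed signal (arbitrary units, log axis) of each of the 17 iron handling probes on the EGR1-deficient array (circles) and the WT array (squares). Horizontal bars are the scanner program's error estimate per spot. The points of a probe lie close together for all probes except probe 2 of Slc11a2, at 102 on the EGR1-deficient array and 45.5 on the WT array.

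Iron enters cells mainly on transferrin, which binds the transferrin receptor encoded by Tfrc, on chromosome 16. The main Tfrc probe read 598 on the EGR1-deficient array and 699 on the WT array. Its difference of -0.29 was larger than the scanner error of 0.20. The dimmer Tfrc probe read 25.9 on the EGR1-deficient array and 30.8 on the WT array, which is a difference of -0.32 with a scanner error of 0.31. Both Tfrc probes were therefore lower on the EGR1-deficient array, by a like amount under this scaling. The main and the dimmer probe stood at -0.23 and -0.43 after quantile normalization. After normexp background correction they stood at -0.19 and -0.069. Of all genes, 18.3% had a difference below that of Tfrc.

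Proliferating cells and erythroid precursors carry much transferrin receptor, so their markers are given beside Tfrc. Of 11 proliferation markers above background on both arrays, 5 were above 0 and 6 below, with a median of -0.14. This median moved to -0.0074 with averaged probes, -0.022 with the authors' series table and -0.053 with no filter on dim probes. The summed signal over all 12 with a probe was 11918 on the EGR1-deficient array and 12033 on the WT array. The ribonucleotide reductase gene Rrm1 was the 1 proliferation marker past 1.5-fold, at -1.21, where 4.17% of all genes were 1.5-fold or more lower. Of 13 erythroid markers with a probe, 6 were above background on both arrays, 2 of them above 0 and 4 below, with a median of -0.038 that turned to 0.016 after normexp background correction and 0.036 with the authors' series table. The summed signal over all 13 was 3117 on the EGR1-deficient array and 2758 on the WT array, most of it from Ermap, at 2629 on the EGR1-deficient array and 2289 on the WT array (0.13). The alpha-globin gene Hba-a1 stood at -0.12, with another probe at 0.12, and the erythropoietin receptor gene Epor at 0.52. The part of these cells in the Tfrc value was not tested.

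Hfe, on chromosome 13, encodes the MHC class I-like protein that binds the transferrin receptor and is mutated in hereditary hemochromatosis. Its main probe read 288 on the EGR1-deficient array and 265 on the WT array, which is a difference of 0.054. Its other probe gave 98.5 on the EGR1-deficient array and 97.2 on the WT array (-0.047 after scaling). Both differences were within the scanner error, and they had opposite signs.

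The NRAMP family transports divalent metals out of endosomes and phagosomes. Slc11a1 (NRAMP1, chromosome 1) acts in the phagosome membrane of macrophages and neutrophils, where it withdraws iron and manganese from engulfed microbes. The 1 probe of Slc11a1 read 280 on the EGR1-deficient array and 355 on the WT array. The difference was -0.40 with a scanner error of 0.21, the furthest from 0 of the 10 genes. Of all genes, 9.86% lay lower than Slc11a1 and 17.5% lay as far from 0 or further in either direction.

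Slc11a1 is a gene of macrophages, monocytes and neutrophils, and the markers of those cells moved in different ways. Of 13 red pulp and tissue macrophage markers above background on both arrays, 11 were below 0 and 2 above, with a median of -0.34. Of all genes, 57.4% were below 0. Among these markers C1qc was the 1 past 1.5-fold, where 4.17% of all genes were 1.5-fold or more lower. None was past it with the authors' series table. Their summed signal, over all 14 with a probe, was 33779 on the EGR1-deficient array and 42166 on the WT array. The complement genes C1qc (-0.64) and C1qb (-0.58) and the growth factor receptor gene Csf1r (-0.39, another probe -0.05) were among the 11. So was Siglec1 (-0.55), whose other probe stood at 0.48. The 2 above 0 were Spic (0.20) and Vcam1 (0.0020, another probe -0.73). Of 8 monocyte markers, 3 were above 0 and 5 below, with a median of -0.17. Their summed signal was 73050 on the EGR1-deficient array, against 74532 on the WT array. Fcgr4 stood at -0.56 and Cx3cr1 at 0.32, with its other probe at 0.86. Neutrophil markers had a median of 0.089 and an unscaled summed signal of 122753 on the EGR1-deficient array, against 109520 on the WT array. Most of this sum came from Csf3r (0.11) and S100a9 (0.17). Dendritic cell markers had a median of -0.032, which turned to 0.072 after quantile normalization, 0.079 after loess and 0.083 with the authors' series table. The part of these cells in the Slc11a1 value was not tested.

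Slc11a2 (DMT1, chromosome 15) encodes the related transporter that moves iron freed from transferrin across the endosome membrane. Its brightest probe read 183 on the EGR1-deficient array and 180 on the WT array, which is a difference of -0.045 after scaling. The second read 102 on the EGR1-deficient array and 45.5 on the WT array, which is a difference of 1.09 with a scanner error of 0.23. The third read 76.6 on the EGR1-deficient array and 86.6 on the WT array, which is a difference of -0.24. The fourth read 28.3 on the EGR1-deficient array and 29.3 on the WT array, which is a difference of -0.12. The second probe was the 1 of 17 iron handling probes that was 1.5-fold or more apart. Of all 19580 named probes above background on both arrays, 7.87% were that far apart in either direction, so a single probe among 17 is near the background share.

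The 4 probes of Slc11a2 spanned 1.34 log2 units. Among the 4594 genes with 2 or more probes above background on both arrays, 4.27% had probes spanning 1 log2 unit or more. A span widens with the number of probes, and the share among genes with 4 probes was not counted. The brightest, the second and the fourth probe carry the same transcript accession, so the accession does not set the second apart. Slc11a2 is known to be made as several isoforms with different first and last exons. Where each probe lies in the transcript is not stated in the labels or files, and each probe was printed as 1 spot, so the reading of the second probe has no repeat.

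**Figure D2:**
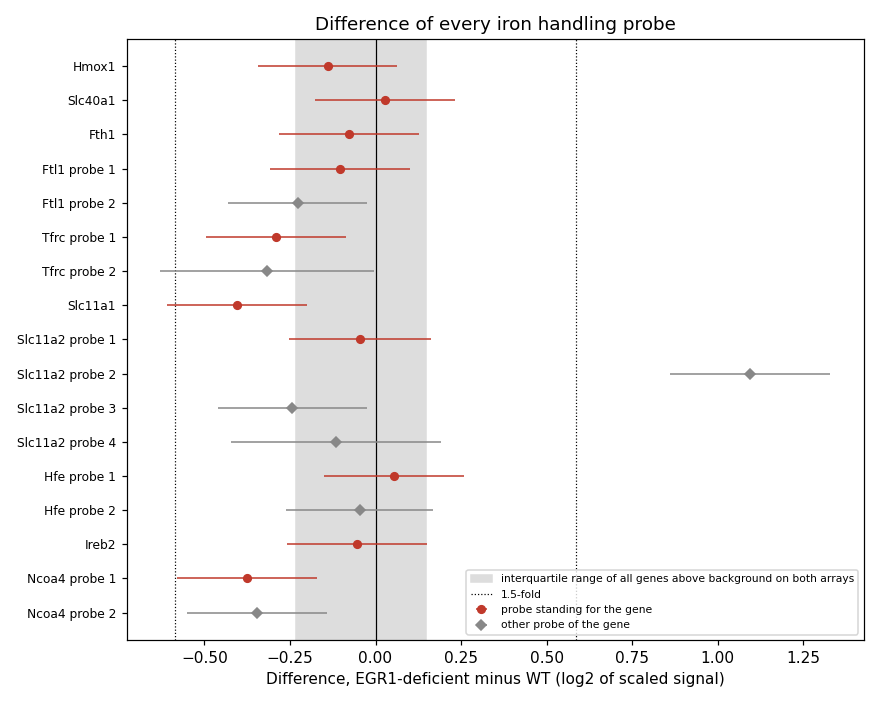
Difference of each of the 17 iron handling probes (log2 of scaled signal, EGR1-deficient minus WT), with bars for the scanner error of the difference. The shaded band is the interquartile range of all genes (-0.23 to 0.15) and dotted lines mark 1.5-fold. Probe 2 of Slc11a2 (1.09) is the 1 probe outside the dotted lines, and the probes of Slc11a1, Tfrc and Ncoa4 and probe 3 of Slc11a2 (-0.24) lie left of the band.

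Ferritin is a hollow shell of heavy and light chains in which iron is stored as a mineral. Fth1, on chromosome 19, encodes the heavy chain, which oxidises the entering iron. Its 1 probe read 28706 on the EGR1-deficient array and 28929 on the WT array, which is a difference of -0.078. Ftl1, on chromosome 7, encodes the light chain, which helps the mineral core to form. Its brighter probe read 30884 on the EGR1-deficient array and 31705 on the WT array, which is a difference of -0.10. Its other probe read 5631 on the EGR1-deficient array and 6299 on the WT array, which is a difference of -0.23, just beyond the scanner error of 0.20. The ferritin transcripts thus differed by 1.06-fold for Fth1 and 1.07-fold for Ftl1 in the probes that stand for the genes. Both genes have near-identical pseudogene copies, 5 of which carry ferritin names in the gene table used, so their probes may read more than one locus.

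The promoter of Fth1 is shown because it held the 1 match to the EGR1 binding motif among the promoter windows of the iron handling genes. The motif searched was GCGNGGGCG on both strands, in windows that run 250 bases before and 50 bases after each transcript start in RefSeq's table of build GRCm38.p6. Of 32851 windows in that table, 5.55% held a match, and 1 of 11 windows of the iron handling genes did. The 11 windows cover 7 of the 10 genes, and Hmox1, Slc40a1 and Slc11a2 had none in the table. Fth1 has windows at more than one start, and the window with the match is shown. The 250 bases before this start lie at chr19:9982396-9982645 on the plus strand, with the match, which is on the minus strand, in capitals.
Fth1: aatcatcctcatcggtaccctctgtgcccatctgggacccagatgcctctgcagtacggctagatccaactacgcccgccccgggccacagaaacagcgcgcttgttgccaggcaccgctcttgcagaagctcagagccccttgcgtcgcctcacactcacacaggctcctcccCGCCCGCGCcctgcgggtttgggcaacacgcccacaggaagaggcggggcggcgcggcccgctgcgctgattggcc
The match begins 76 bases before the transcript start. It is a match of letters in this window and was not tested for binding. The transcript downstream of it differed by -0.078 between the arrays, within the scanner error.

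Ncoa4, on chromosome 14, encodes the receptor that carries ferritin to the lysosome, where its iron is released. Its main probe read 1088 on the EGR1-deficient array and 1349 on the WT array. Its difference was -0.38 with a scanner error of 0.20. Its other probe read 529 on the EGR1-deficient array and 642 on the WT array, which is a difference of -0.35. The SD between the probes of Ncoa4 was 0.020, against a median SD of 0.18 between probes of a gene. Both Ncoa4 probes were lower on the EGR1-deficient array. Of all genes, 11.5% lay lower than Ncoa4.

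Hmox1, on chromosome 8, encodes the inducible heme oxygenase, a well-known target of the oxidative stress factor NRF2 that is held down by the heme-sensing repressor BACH1. Its 1 probe read 11503 on the EGR1-deficient array and 12105 on the WT array. The difference of -0.14 was within the scanner error of 0.20. Slc40a1, on chromosome 1, encodes ferroportin, the known exporter of iron from macrophages. Its 1 probe read 386 on the EGR1-deficient array and 362 on the WT array, which is a difference of 0.028. Hmox1 and Slc40a1, the members for heme breakdown and iron export, thus each differed by less than the scanner error.

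Ireb2, on chromosome 9, encodes iron regulatory protein 2, one of the proteins that bind the iron-responsive hairpins. Its 1 probe read 263 on the EGR1-deficient array and 260 on the WT array, which is a difference of -0.054 after scaling. The gene of the other iron regulatory protein, Aco1, read 834 on the EGR1-deficient array and 1013 on the WT array, which is a difference of -0.35, while its other probe was at 0.28. Neither iron sensor was past 1.5-fold.

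Taken as a list, 8 of the 10 genes were below 0 and 2 above, with a median of -0.091. Over all 13725 genes, 57.4% were below 0 and the median was -0.052. No member was 1.5-fold or more higher, where 3.51% of all genes were, and none was 1.5-fold or more lower, where 4.17% were. At 2-fold or more, 0.707% of all genes were higher, 1.01% were lower and no member was either. In the authors' series table, whose scale adds 0.12 to each of the 10 members and which lists 12772 of the 13725 genes, 649 genes were 1.5-fold or more higher and 239 lower, against 482 higher and 573 lower here, and 4 of the 10 members were below 0. With 10 genes, counts of 0 are near these background shares. The differences of 7 members lay in the interquartile range of all genes, and those of Tfrc, Slc11a1 and Ncoa4 lay below it.

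**Figure D3:**
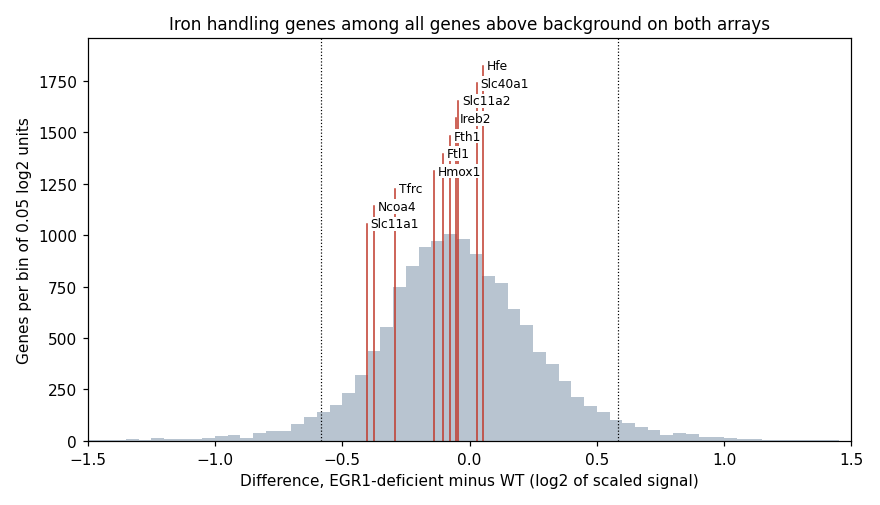
Histogram of the difference (log2 of scaled signal, EGR1-deficient minus WT) for the 13725 genes above background on both arrays, in bins of 0.05, shown between -1.5 and 1.5. Vertical lines mark the 10 iron handling genes, which run from -0.40 (Slc11a1) to 0.054 (Hfe), and dotted lines mark 1.5-fold. All 10 lie between the dotted lines.

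The wider iron and heme pathway was read from 7 further lists with 88 genes, of which 87 had a probe and 71 were above background on both arrays. Of these 71, 24 were above 0 and 47 below, with a median of -0.094, where 57.4% of all genes were below 0. With the authors' series table, 35 were above 0 and 30 below. None was 1.5-fold or more higher and 5 were 1.5-fold or more lower, where 3.51% and 4.17% of all genes were. The 5 lower genes came from 4 of the lists. Their number was 2 after normexp background correction and with the authors' series table, 1 with a stricter filter and 9 with no filter on dim probes. The series table measured 65 genes of these lists and the stricter filter kept 47. Some of the 5 were therefore left out there, not brought under 1.5-fold.

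In the uptake list, 2 of 8 measured genes were past 1.5-fold, both lower on the EGR1-deficient array, where 4.17% of all genes were. The count was 1 after quantile, loess or normexp, with the stricter filter and with averaged probes. Transferrin itself, listed as Trf, read 2776 on the EGR1-deficient array and 4318 on the WT array, which is a difference of -0.70, with its other probe at -0.46. Slc39a14, a transporter of iron not bound to transferrin, was dim, at 29.5 on the EGR1-deficient array and 47.1 on the WT array (-0.74). It did not pass the stricter filter. Its relative Slc39a8 was above background on the WT array only and at least 2.32-fold lower on the EGR1-deficient array. The ferrireductase gene Steap3 (0.31) and the lipocalin receptor gene Slc22a17 (0.40) had differences above 0. Lcn2, whose product binds bacterial iron carriers, read 21244 on the EGR1-deficient array and 21556 on the WT array (-0.09).

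In the export and hepcidin list, 6 of 12 genes were above background on both arrays, with a median of 0.064 that turned to -0.016 after normexp. Bmp6 (-0.64) was the 1 past 1.5-fold, where 4.17% of all genes were 1.5-fold or more lower. None of the list was past it after normexp, with the series table or with the stricter filter. Bmp6 encodes a signal that induces hepcidin in the liver, and it was dim, at 32.0 on the EGR1-deficient array and 47.6 on the WT array. It did not pass the stricter filter. Hamp, the gene of hepcidin, the peptide hormone that removes ferroportin from the cell surface, read 126 on the EGR1-deficient array and 9.47 on the WT array, where it was not well above background. It was at least 7.37-fold higher on the EGR1-deficient array, by 1 probe printed once. Of 1278 genes measured on the EGR1-deficient array only, 14.3% were at least 2-fold higher by this bound. In the same list, Hephl1, a relative of the ferroxidase hephaestin, was at least 3.26-fold lower and the BMP inhibitor gene Smad7 at least 1.72-fold lower on the EGR1-deficient array. Of 371 genes measured on the WT array only, 51.8% were at least 2-fold lower. Hephaestin itself (Heph, 0.04), Id1 (0.35) and Smad6 (0.47) were within 1.5-fold.

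In the sensing and storage list, all 5 measured genes were below 0, or 4 of 5 when the probes of a gene were averaged. Of all genes, 57.4% were below 0. The median was -0.29, which moved to -0.15 after quantile normalization and -0.070 with averaged probes. Herc2 (-0.61) was past 1.5-fold, where 4.17% of all genes were 1.5-fold or more lower. No gene of the list was past it after normexp, with the series table, with the stricter filter or with averaged probes. Herc2 did not pass the stricter filter. It encodes a ubiquitin ligase that acts on NCOA4. Its 3 other probes stood at -0.29, 0.29 and 0.32, so its probes disagree. The iron chaperone genes Pcbp1 and Pcbp2 stood at -0.29 and -0.18, and the other probe of Pcbp2 at 0.010.

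In the mitochondrial list, all 18 genes were measured and none was past 1.5-fold. Their median was -0.093, which turned to 0.021 with the authors' series table, and the scaffold gene Iscu stood at -0.29. Of the iron importers of mitochondria, mitoferrin 1 (Slc25a37) read 1635 on the EGR1-deficient array and 1649 on the WT array. All 9 heme synthesis genes were within 1.5-fold, with a median of 0.00063, and Tmem14c stood at -0.21.

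In the list of heme uptake, transport and breakdown, 9 of 10 measured genes were below 0, with a median of -0.14, where 57.4% of all genes were. It was 6 of 10 after quantile normalization, with a median of -0.034, and 5 of 8 with the authors' series table, with a median of -0.024. The folate transporter gene Slc46a1, whose product was first described as a heme carrier, was past 1.5-fold at -1.92, with 29.7 on the EGR1-deficient array and 107 on the WT array. Of all genes, 4.17% were 1.5-fold or more lower. The series table and the stricter filter each kept 8 of the genes, without Slc46a1, and none of the 8 was past 1.5-fold. The value of Slc46a1 was thus not read again under these settings. Biliverdin reductase, which acts on the product of heme oxygenase, stood at -0.44 for Blvra, with another probe at -0.32. The constitutive heme oxygenase gene Hmox2 read 2737 on the EGR1-deficient array and 2872 on the WT array (-0.14).

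The NRF2 and BACH1 list was set beside Hmox1. All 15 genes were measured and none was past 1.5-fold, with 6 above 0, 9 below and a median of -0.084. Of all genes, 57.4% were below 0. The median moved to -0.0045 after quantile normalization and -0.0069 after loess. With the authors' series table it turned to 0.011, with 7 genes above 0 and 7 below. Bach1 was the furthest from 0, at 262 on the EGR1-deficient array and 205 on the WT array (0.29). The thioredoxin reductase gene Txnrd1 (-0.22), the glutathione reductase gene Gsr (-0.22) and G6pdx of the pentose phosphate pathway (-0.25) were below 0, and Prdx1 was at 0.11 with other probes at -0.13 and -0.12.

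**Figure D4:**
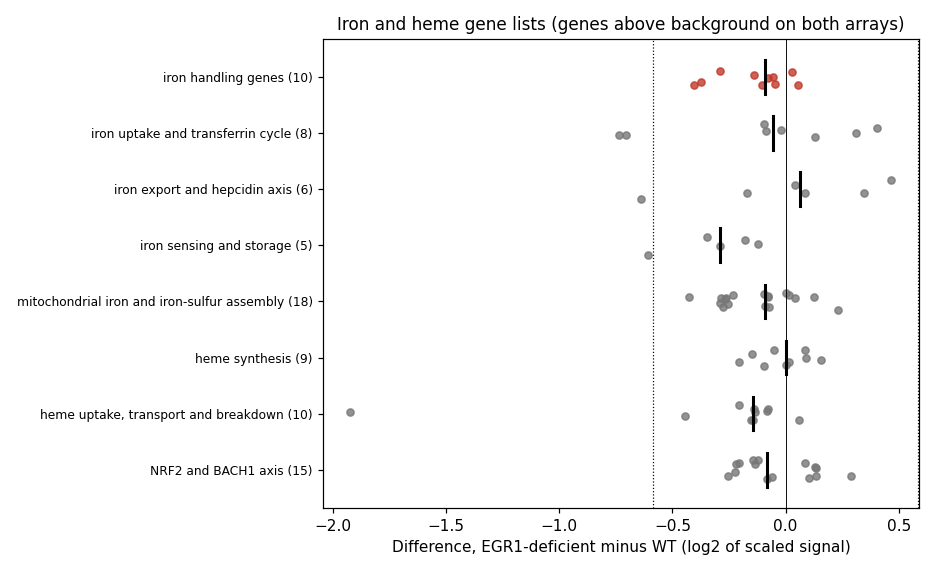
Difference (log2 of scaled signal, EGR1-deficient minus WT) of each gene above background on both arrays, for the 10 iron handling genes and 7 further iron and heme lists, with the number of genes in brackets. Black bars are medians and dotted lines mark 1.5-fold. Slc46a1, at -1.92 in the list of heme uptake, transport and breakdown, is the furthest from 0.

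The processing moved the iron handling genes little. Over the 9 settings, no member reached 1.5-fold. Slc11a1 stayed between -0.40 and -0.29, Ncoa4 between -0.38 and -0.25 and Tfrc between -0.30 and -0.18, below 0 in all 9. Hmox1 was also below 0 in all 9, between -0.14 and -0.021. The signs of the other 6 members changed with the setting, so no direction is given for them. The authors' series table moved the median of all genes to 0.064, and relative to each setting's own median Slc11a1, Ncoa4 and Tfrc were again lower in all 9.

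**Figure D5:**
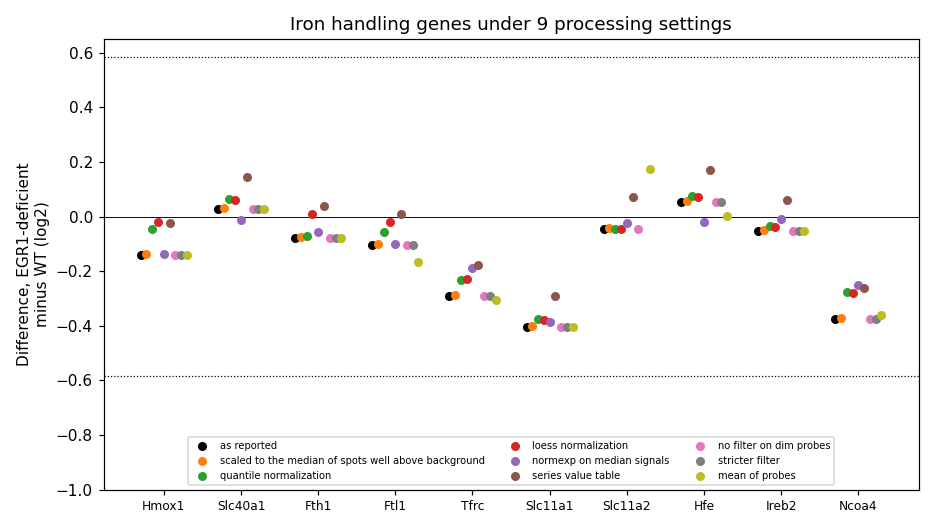
Difference (log2, EGR1-deficient minus WT) of each iron handling gene under 9 processing settings, 1 point per setting, with black for the values reported and dotted lines at 1.5-fold. Slc11a1, Ncoa4, Tfrc and Hmox1 stay below 0 under all 9 settings, and Slc11a2 has 1 point fewer because it did not pass the stricter filter.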

How the data were processed

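The authors deposited scanner output of 2 arrays, 1 per group, with spot intensities on a linear scale made with Agilent Feature Extraction 12.1.0.3, per the file headers (the submitters' processing notes name 11.5.1.1). Background subtraction and detrending preceded the processed intensity, per the file headers, and both arrays shared 1 slide and 1 scan. A series table of intensities that the authors also deposited equals the processed intensity times 1 constant per array (6.18 for EGR1-deficient, 5.97 for WT), of unstated origin, and served as an alternative.

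Each array's processed intensity was divided by its 75th percentile among non-control spots (192 for EGR1-deficient, 183 for WT) and log2-transformed. Outlier spots (77 on EGR1-deficient, 79 on WT) were left out, no spot was saturated, and repeated spots were averaged. Probes were named through RefSeq accessions (GRCm38.p6). The array files name build mm9, so genes are placed by chromosome only. The probe of highest mean signal stood for a gene, and genes with it well above background on both arrays were counted. Where a gene was measured on a single array, its at-least fold used as the dim value the probe's own signal or the lowest signal called well above background there (13.3 on EGR1-deficient, 16.3 on WT), whichever was larger. Array number limits the precision.

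Named genes were all 10 members, the label checks and, per further list, up to 4 with the largest difference and the 2 brightest. The genes measured on 1 array only were added after their values were seen. Some genes that the rule names are not reported here. Members and lists were chosen with earlier results of these data known. The counting step was tested on simulated data. Python 3.11.15, R 4.3.3 and limma 3.58.1 were used.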

Additional observations from a re-analysis of the deposited data

How the results depend on the processing

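The 8 alternatives changed the scale, the background correction, the source of the values, the filter on dim probes and the probe standing for a gene. Of 79 values of single iron handling genes under them, 78 moved by less than 0.18, the median SD among a gene's probes, and Slc11a2 moved to 0.17 with the mean of its probes. The counts of iron handling genes 1.5-fold or more apart stayed at 0, and the list's median ran from -0.11 with the mean of probes to 0.024 with the series table. For the other iron and heme genes the median ran from -0.12 without a filter to 0.021 with the series table. The 1 probe past 1.5-fold, of Slc11a2, gave a count of 0 after normexp, where it stood at 0.57, and 0 with the stricter filter, which it did not pass. For all genes, those 1.5-fold or more higher and lower on the EGR1-deficient array numbered 482 and 573, and those 2-fold or more 97 and 138. Normexp, whose offset of 50 shrinks dim differences by construction, gave 68 and 130, and 18 and 32. No filter gave 2527 and 1932, and 1280 and 971. The stricter filter, over 6715 genes, gave 21 and 68, and 3 and 8. The series table, which adds 0.12 to each member by its scale and holds 12772 genes, gave 649 and 239, and 103 and 68. Quantile normalization gave 381 and 675 at 1.5-fold. Normexp used median spot signals, a choice made after seeing the data because the files read here hold no mean signal column, and matching by a gene name column was not run for the same reason. No paired analysis was possible because each group has 1 array.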
